A study of Mus musculus with 25 samples.

Results

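The genes described here are the heat shock proteins and J-domain proteins of mouse liver, the molecular chaperones named Hspa to Hsph, Hsp90 and Dnaja to Dnajc. Their symbols were taken from the RefSeq accession of each array probe, and a gene was kept when its probe was well above background on 5 or more of 25 arrays. By name the array holds 73 of them, and 61 passed, among 15104 genes that passed in all. Of the 61, 34 act in the cytosol or nucleus (of 45 on the array), 14 in the endoplasmic reticulum, or ER (of 14), and 10 in mitochondria (of 10). The remaining 3 of 4, Hspg2, Hspb11 and Dnajc22, match by name and were not placed. Hspg2 encodes perlecan, a matrix proteoglycan and no chaperone. Dnajb13, Dnajb3, Dnajb7, Dnajb8, Dnajc27, Dnajc5b, Dnajc5g, Dnajc6, Hspa12a, Hspb3, Hspb7 and Hspbap1 did not pass. Of the 61, 57 were detected on all 25 arrays.

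The study measured liver RNA of female C57BL/6NcrSlc mice in hepatitis caused by concanavalin A (ConA), a lectin that activates T cells, with and without BW245C, an agonist of DP1, a receptor of prostaglandin D2. There were 5 groups of 5 mice, with 1 one-colour Agilent array per mouse. The untreated mice were labelled as non-treated and unstimulated, and no age was given. The 4 other groups all received ConA at 10 mg/kg and, 15 min later, an intraperitoneal injection of vehicle or of BW245C at 1 mg/kg, and their livers were taken at 3 hr or at 24 hr. No group received vehicle or BW245C without ConA, so the lectin and the injection of vehicle cannot be told apart in the comparisons with untreated mice. All values below are log2 of the processed signal after subtraction of each array's 75th percentile, called log2 scaled signal, and mice are listed in the order of their replicate numbers. A gene was called changed at an adjusted p under 0.05 in limma's moderated test, fitted on all 15104 genes over 25 arrays with Benjamini-Hochberg adjustment, and every adjusted p below is from that fit unless a slide block is named.

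Chaperones bind unfolded or partly folded proteins and keep them from aggregating. Hsp70 proteins work through cycles of ATP hydrolysis that J-domain proteins start and nucleotide exchange factors such as the Hsp110 proteins end, while small heat shock proteins hold clients without ATP. Heat shock factor 1 induces many cytosolic members when unfolded proteins accumulate, and the unfolded protein response does so for ER members. In liver the ER chaperones serve the folding of secreted plasma proteins, and the mitochondrial members serve protein import and folding in the matrix.

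Between 52.2% and 61.6% of spots were well above background per array, and no spot was saturated. The 6 hepatocyte markers (albumin and others) were well above background in all groups, with a summed linear scaled signal of 4373 to 5161 in untreated mice, 5083 to 6083 and 4820 to 5741 at 3 hr with vehicle and BW245C, and 2886 to 3839 and 3260 to 4144 at 24 hr. Summed signals of other cell types moved with the groups too. The 6 measured of 7 neutrophil markers ran from 110.5 to 127 in untreated mice, 175 to 290 with vehicle and 168 to 260 with BW245C at 3 hr, and 259 to 390 with vehicle and 131 to 208 with BW245C at 24 hr. Of these, Cxcr2 and Mmp8 gave no spot well above background in untreated mice. The 5 measured of 6 macrophage markers ran from 63.2 to 99.4 in untreated mice and from 8.91 to 24.2 with vehicle at 24 hr. The 2 measured of 4 erythroid markers ran from 39.4 to 121 in untreated mice, 337 to 533 with vehicle and 42.0 to 244 with BW245C at 3 hr, and 39.7 to 101 and 44.6 to 77.6 at 24 hr. In whole liver RNA, fewer cells of a type and less RNA per cell cannot be told apart, and the part of these cell types in the changes below was not tested. The arrays lay on 5 slides. All 5 BW245C mice at 3 hr shared slide 3 with 2 of the 5 vehicle mice, and no untreated mouse lay on that slide. No slide held both untreated and 24 hr vehicle mice. Values with slide as a block are therefore given where it moves a call or a count. The exception is the contrasts of BW245C with untreated mice, which were fitted without the block.

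The largest rise among the chaperones after ConA was that of Hspa1a, the stress-inducible cytosolic Hsp70. Its log2 scaled signal was -3.17, -3.54, -2.93, -3.12 and -2.85 in the 5 untreated mice. With ConA and vehicle it was 0.13, -1.17, -1.01, -0.07 and 1.16 at 3 hr, and 0.95, 1.56, 0.82, 1.56 and 0.60 at 24 hr. Every mouse of both vehicle groups was above every untreated mouse, and the mice at 3 hr spread more widely than those at 24 hr. The change was 2.93 ± 0.33 (SE) at 3 hr, 7.64-fold with an adjusted p of 4.84e-08, and 4.22 ± 0.33 at 24 hr, 18.6-fold with an adjusted p of 9.11e-11 (n = 5 per group, limma). With slide as a block the changes were 2.60 and 3.84. Hspa1a and its neighbour Hspa1b are near-identical, no probe carried the name Hspa1b, and the signal may come from either gene. Its promoter is shown because it holds a motif of the kind that heat shock factors bind. The motif marked is GAANNTTC, a palindrome found on both strands at once. It was searched in the RefSeq window from 250 bases before to 50 bases after each gene's start. It is present in 9.04% of the 27025 genes with a window and in 13 of the 59 chaperones by name that have one. The other arrangement, TTCNNGAA, was searched too. It is present in 9.6% of these genes and in 6 of the 59 chaperones (10.2%), Hspa1a not among them. The stretch lies at chr17:34972213-34972300, minus strand, in GRCm38.p6 and is printed in the gene's direction with the match in capitals.
Hspa1a: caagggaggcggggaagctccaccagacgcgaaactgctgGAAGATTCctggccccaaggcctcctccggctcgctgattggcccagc

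Of the 61 chaperones, 15 rose and 17 fell with vehicle at 3 hr, against 25% and 37% of all genes, together 62% of all genes. At 24 hr 21 rose and 18 fell, against 29.8% and 39.1%, together 68.9%. The chaperones were thus called at shares close to those of all genes, and their median change was -0.04 at 3 hr and -0.02 at 24 hr, beside -0.09 and -0.08 over all genes. From 3 hr to 24 hr with vehicle 24 rose and 23 fell, against 33.2% and 35.3%, together 68.4%. Once slide was a block 17 rose and 18 fell at 3 hr, 20 rose and 11 fell at 24 hr, and 25 rose and 17 fell between the times. Over all 15104 genes the block gave 3383 higher and 4750 lower at 3 hr. It gave 3454 and 4246 at 24 hr, and 4745 and 4929 between the times. Among 34 cytosolic members 12 rose and 10 fell at 3 hr, and 14 rose and 5 fell at 24 hr. In the ER 2 of 14 rose and 3 fell at 3 hr, and 6 rose and 3 fell at 24 hr. In mitochondria 1 of 10 rose and 3 fell at 3 hr, and 0 rose and 9 fell at 24 hr. The 3 hr counts with slide as a block were 15 and 10 in the cytosol, 1 and 4 in the ER, and 1 and 3 in mitochondria. The 24 hr counts with slide as a block were 14 and 2 in the cytosol, 5 and 2 in the ER, and 0 and 6 in mitochondria. The median change at 24 hr was 0.05 in the cytosol, 0.15 in the ER and -0.54 in mitochondria.

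**Figure D1:**
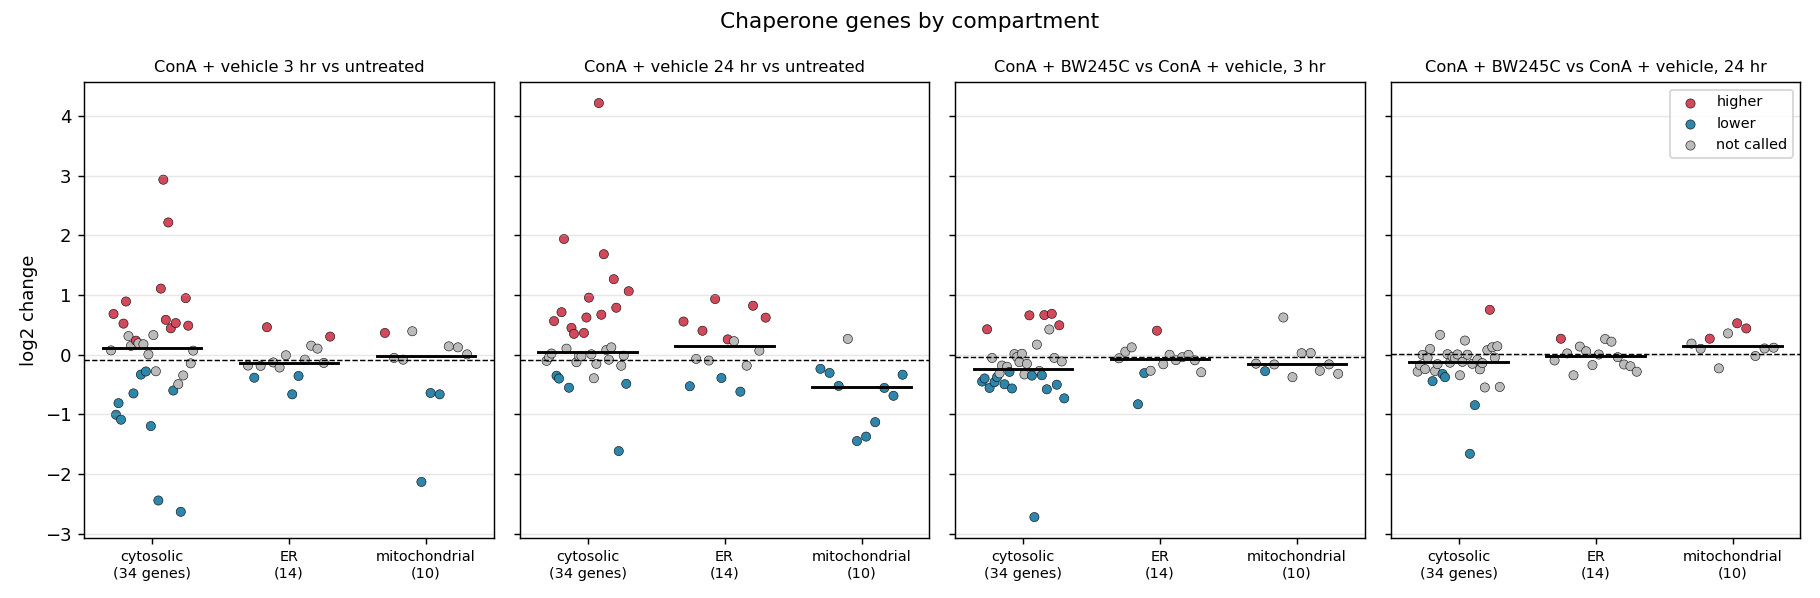
Each point is 1 chaperone gene, with its log2 change on the y axis and its compartment on the x axis, in 4 comparisons of 5 mice against 5. Red marks genes called higher, blue lower and grey not called; the solid bar is the median of the compartment and the dashed line that of all 15104 genes. In the second panel 9 of 10 mitochondrial genes are blue, with a median of -0.54, and the cytosolic genes reach 4.22 at Hspa1a.

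How the called members divide depended on the scaling. At 24 hr against untreated, 53.8% of called members were higher; after quantile normalization 66.7% were (30 higher, 15 lower) and on the values of the authors' deposited matrix 80.0% were (36 higher, 9 lower). Over all genes the same shares were 43.2%, 47.7% and 65.7%, and the median change over all genes went from -0.08 to 0.26 with the matrix values. At 3 hr 46.9% of called members were higher, against 40% after quantile normalization and 31.7% on the matrix values. Over all called genes these shares were close, at 40.3%, 35.8% and 31.3%. From 3 hr to 24 hr the even split of 24 higher and 23 lower became 34 and 14 after quantile normalization and 39 and 9 on the matrix values. Of all called genes 56.2% were higher after quantile normalization and 74.1% on the matrix values, against 48.5% as reported. The mitochondrial median at 24 hr remained the lowest of the compartments: it was -0.21 after quantile normalization and -0.20 on the matrix values, below -0.02 and 0.26 over all genes, while the cytosolic median was 0.38 and 0.39 and the ER median 0.27 and 0.49.

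Other Hsp70 genes followed courses of their own. Hspa2, an Hsp70 best known from the testis, was -1.18, -1.47, -1.43, -1.70 and -1.47 in untreated mice and 1.23, 0.81, 0.98, 0.45 and 0.36 with vehicle at 3 hr. At 24 hr it was 0.15, -0.04, 0.20, 0.65 and 0.21. All 10 vehicle mice were above all untreated mice. It rose by 2.22 ± 0.16 at 3 hr (adjusted p = 3.67e-11, limma) and by 1.68 ± 0.16 at 24 hr (adjusted p = 2.93e-09), and fell by 0.53 between the times (adjusted p = 0.00560). Within slide 3, the only slide with both vehicle groups, the difference between the times was -0.25 (1 mouse against 2). The size of this fall depends on the scaling. Over all genes the median change between the times was -0.03 as reported and 0.42 on the deposited matrix values. Hspa14, a ribosome-associated Hsp70, was higher at 3 hr. It was 3.11, 3.32, 3.25, 3.22 and 3.20 in untreated mice and 4.73, 4.39, 4.47, 4.01 and 4.04 at 3 hr, with no overlap. At 24 hr it was 3.1, 3.08, 3.13, 2.95 and 3.07, within or just below the untreated values. The change was 1.11 ± 0.12 at 3 hr (adjusted p = 4.93e-08) and -0.16 ± 0.12 at 24 hr (adjusted p = 0.270), and the difference between the times was -1.26 ± 0.12 (adjusted p = 4.45e-09, limma).

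Hspa8, the constitutive cytosolic Hsp70 that also uncoats clathrin vesicles, rose less. It was 8.23, 8.14, 8.37, 8.21 and 8.02 in untreated mice, 8.68, 8.96, 8.62, 8.62 and 8.74 at 3 hr with vehicle and 8.21, 8.19, 8.36, 8.38 and 8.44 at 24 hr. The 3 hr mice were above all others and the 24 hr mice overlapped the untreated ones. The changes were 0.53 ± 0.11 (adjusted p = 0.000262) and 0.12 ± 0.11 (adjusted p = 0.338, limma). The fall of 0.41 from 3 hr to 24 hr (adjusted p = 0.00260) became a difference of 0.28 after quantile normalization and 0.04 on the deposited matrix values, and its adjusted p with slide as a block was 0.0921. The other Hspa8 probes, 2 in number, gave 0.58 and 0.67 at 3 hr.

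Hspa12b, a distant Hsp70 relative known from endothelial cells, fell. It was -1.93, -1.74, -1.64, -1.80 and -1.51 in untreated mice and -4.37, -5.03, -4.05, -4.03 and -3.36 at 3 hr, where 2 of 5 arrays were well above background. At 24 hr it was -1.98, -2.24, -1.84, -2.00 and -2.54, overlapping the untreated mice. The change at 3 hr was -2.45 ± 0.21 (adjusted p = 6.15e-10, limma). Beside it, the summed signal of the 7 sinusoidal endothelial markers ran from 77.5 to 92.0 in untreated mice, from 50.2 to 69.5 with vehicle at 3 hr and from 37.1 to 41.0 at 24 hr, when Hspa12b was -0.40 from untreated mice (adjusted p = 0.0979). Hspa1l, a testis-enriched Hsp70, rose by 0.58 ± 0.17 (adjusted p = 0.00419) at 3 hr and 0.67 ± 0.17 (adjusted p = 0.00112) at 24 hr. Hspa4l, an Hsp110 relative, fell by 0.60 at 3 hr (adjusted p = 0.00246) and was -0.08 from untreated mice at 24 hr (adjusted p = 0.650). Its relative Hspa4 is uncertain: the probe used gave 0.44 at 3 hr, while its dimmer probes, 2 in number, gave -0.37 and -0.46.

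Hsph1, which encodes the Hsp110 nucleotide exchange factor, and Hsp90aa1, the inducible cytosolic Hsp90, rose at 24 hr. Hsph1 was 2.95, 2.87, 2.93, 3.23 and 2.62 in untreated mice and 3.79, 3.84, 4.18, 4.27 and 3.83 with vehicle at 24 hr, with no overlap, a change of 1.06 ± 0.24 (adjusted p = 0.000371, limma). Hsp90aa1 was 4.20, 4.51, 4.23, 4.63 and 4.38 and 5.31, 5.12, 5.40, 5.66 and 5.25, also without overlap, a change of 0.96 ± 0.17 (adjusted p = 2.72e-05). Both were raised in every mouse at this time. At 3 hr the vehicle mice were split: Hsph1 was 3.46, 3.76, 2.36, 2.63 and 2.73, and Hsp90aa1 was 5.16, 5.28, 4.54, 4.31 and 4.31. Replicates 1 and 2, on slide 2, were the highest for both, and neither gene was called (changes of 0.07 and 0.33, adjusted p of 0.818 and 0.0956). With slide as a block the Hsp90aa1 change at 3 hr was 0.39 (adjusted p = 0.0438). Without the vehicle mice of slide 3 it was 0.60 (adjusted p = 0.0036), and without those of slide 2 its adjusted p was 0.982. Hsp90ab1, the constitutive cytosolic Hsp90, was -0.28 ± 0.12 from untreated mice at 3 hr (adjusted p = 0.0515) and 0.01 ± 0.12 at 24 hr (adjusted p = 0.971). The 3 hr change was called after quantile normalization and on the deposited matrix values (-0.37 and -0.38, adjusted p = 0.00265 and 0.00145, limma). It was also called in 5 fits that left out 1 mouse each, but not with slide as a fixed block. Within slides 1 and 2 it was -0.49 and 0.01.

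**Figure D2:**
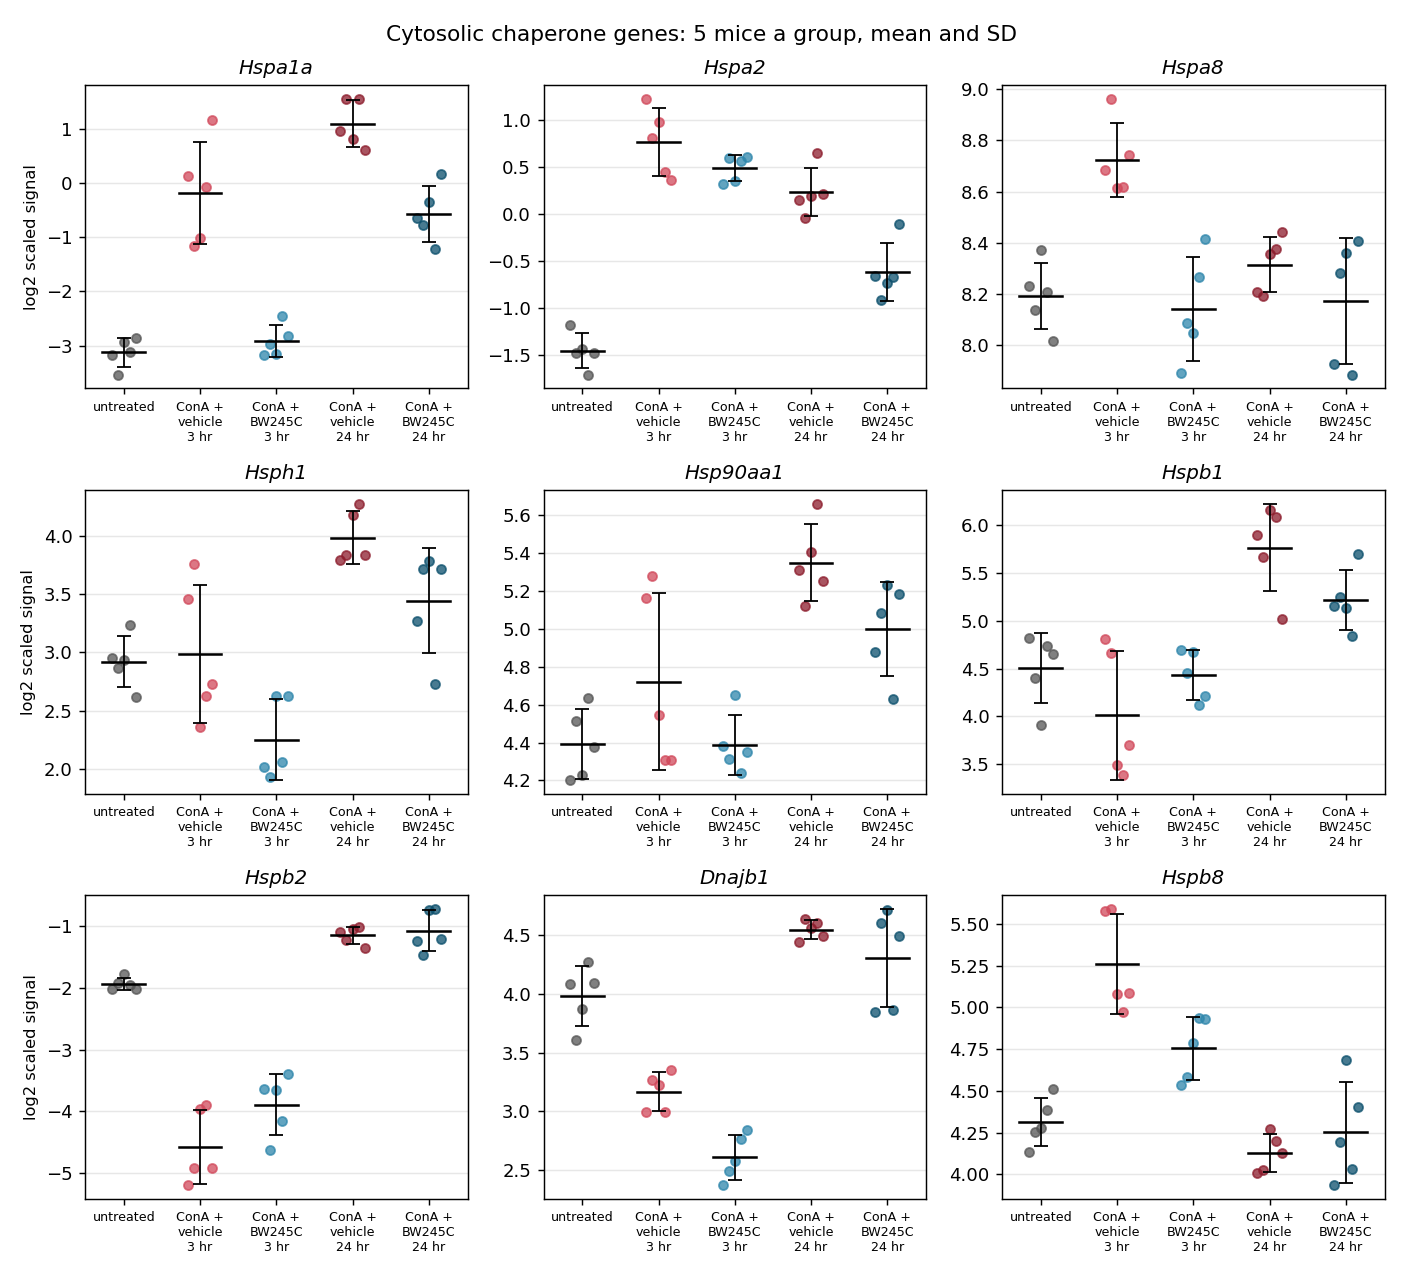
Log2 scaled signal (y axis) of 9 cytosolic chaperone genes in the 5 groups (x axis); points are mice, the long bar is the group mean and the whiskers its SD (n = 5). Hspa1a reaches 1.10 ± 0.44 with vehicle at 24 hr and -0.57 ± 0.52 with BW245C, and Hspb2 drops to -4.57 ± 0.60 with vehicle at 3 hr.

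The small heat shock proteins moved in opposite directions. Hspb1, an actin-protecting holdase, was 4.82, 4.40, 3.91, 4.74 and 4.65 in untreated mice and 5.90, 5.67, 6.16, 6.09 and 5.02 with vehicle at 24 hr. All vehicle mice at 24 hr exceeded all untreated mice, and the change was 1.27 ± 0.26 (adjusted p = 0.000189, limma). At 3 hr it was 4.81, 4.66, 3.49, 3.39 and 3.70, again higher in replicates 1 and 2, and was not called (-0.49 ± 0.26, adjusted p = 0.108). Without those 2 mice the change was -0.98 with an adjusted p of 0.0013. Hspb8, a partner of Bag3 in selective autophagy, was 4.13, 4.26, 4.28, 4.39 and 4.51 in untreated mice and 5.58, 5.59, 5.08, 4.97 and 5.08 at 3 hr, without overlap, and 4.01, 4.03, 4.27, 4.20 and 4.13 at 24 hr. It rose by 0.95 ± 0.14 at 3 hr (adjusted p = 2.98e-06) and was -0.19 from untreated mice at 24 hr (adjusted p = 0.240). Hspb9, best known from the testis, rose by 0.49 ± 0.13 (adjusted p = 0.00301) at 3 hr and was -0.02 at 24 hr (adjusted p = 0.912).

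Hspb2, a small heat shock protein best known from muscle, was -2.03, -1.93, -1.77, -1.95 and -2.03 in untreated mice and -5.19, -4.91, -3.96, -3.89 and -4.92 with vehicle at 3 hr, where 2 of 5 arrays were well above background. At 24 hr it was -1.10, -1.23, -1.05, -1.02 and -1.36, above all untreated mice. It fell by 2.63 at 3 hr (adjusted p = 1.01e-09, limma) and rose by 0.79 ± 0.23 at 24 hr (adjusted p = 0.00472). As most arrays at 3 hr were not well above background, the size of the fall is not exact. Hspb6, also abundant in muscle, took the other course. It was 1.49, 1.30, 1.31, 1.54 and 1.63 in untreated mice, 1.33, 1.48, 1.21, 0.95 and 0.57 at 3 hr and -0.17, -0.18, 0.13, -0.48 and -0.11 at 24 hr. The 24 hr mice were below all others, a fall of 1.62 (adjusted p = 2.39e-09), while at 3 hr the change was -0.35 ± 0.15 (adjusted p = 0.0517). The summed signal of the 5 stellate cell and muscle markers ran from 9.22 to 10.5 in untreated mice, 13.3 to 17.1 with vehicle at 3 hr and 12.8 to 16.4 at 24 hr.

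Among the cytosolic J-domain proteins, which start the ATPase of Hsp70, several changed direction between the times. Dnajb1, the main partner of inducible Hsp70, was 4.08, 3.61, 3.87, 4.27 and 4.09 in untreated mice, 2.99, 3.27, 3.23, 3.00 and 3.36 at 3 hr and 4.44, 4.64, 4.56, 4.6 and 4.49 at 24 hr. The 3 sets did not overlap: 3 hr mice lay lowest and 24 hr mice highest. Dnajb1 fell by 0.81 at 3 hr (adjusted p = 7.43e-05, limma), while Hspa1a rose, and it rose by 0.56 ± 0.15 at 24 hr (adjusted p = 0.00250). Dnajc9, a histone chaperone with a J domain, was 1.56, 1.57, 1.46, 1.37 and 1.58 in untreated mice, 0.30, 0.40, 0.46, 0.16 and 0.24 at 3 hr and 2.33, 2.14, 2.20, 2.01 and 1.97 at 24 hr. It too had separate sets in the same order, with changes of -1.20 ± 0.09 (adjusted p = 6.38e-11) and 0.62 ± 0.09 (adjusted p = 1.81e-06). Beside it, the 4 proliferation markers summed to 0.484 to 0.637 in untreated mice, 1.14 to 2.12 at 3 hr and 2.63 to 4.50 at 24 hr.

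Dnajc12, a co-chaperone of aromatic amino acid hydroxylases including the phenylalanine hydroxylase of liver, was 2.13, 2.39, 2.22, 2.27 and 2.27 in untreated mice and 4.19, 3.96, 4.27, 4.14 and 4.43 at 24 hr. The groups lay apart, and the rise was 1.94 ± 0.16 or 3.83-fold (adjusted p = 1.80e-10, limma). At 3 hr it was 2.46, 3.35, 2.55, 2.35 and 2.13, with replicate 2 high, and was not called (adjusted p = 0.0903). Dnaja2, a general Hsp70 partner, rose at 3 hr from 3.24 ± 0.05 (SD, n = 5) to 3.93 ± 0.08 without overlap (0.68 ± 0.07, adjusted p = 1.69e-08) and was 3.20 ± 0.13 at 24 hr. A second Dnaja2 probe gave 0.47 at 3 hr and -0.68 at 24 hr, so the direction at 24 hr is uncertain. At 3 hr the changes were -1.01 ± 0.12 (adjusted p = 1.25e-07) for Dnaja4, -1.09 ± 0.13 (adjusted p = 1.05e-07) for Dnajb2 and 0.52 ± 0.15 (adjusted p = 0.00440) for Dnajb4. Dnajc17, a splicing-associated J-domain protein, was -0.65 ± 0.13 (adjusted p = 0.000141) at 3 hr and -0.55 ± 0.13 (adjusted p = 0.000628) at 24 hr, the latter not called with slide as a block. Dnaja1 was 0.07 and -0.10 (adjusted p = 0.666 and 0.507). Dnajb6, which suppresses aggregation of polyglutamine proteins, rose by 0.89 ± 0.10 at 3 hr (adjusted p = 9.26e-08) and 0.71 ± 0.10 at 24 hr (adjusted p = 2.12e-06) with the brightest probe. Of its other probes, 3 in number, 1 gave 0.84 and 0.68, while the others gave 0.26 at 3 hr and -0.24 and -0.47 at 24 hr, and the mean of the probes was not called at 24 hr (0.17, adjusted p = 0.0855). Dnajc5 is uncertain in the same way: its brightest probe gave -0.02 at 24 hr and its dimmer probes 1.93 and 2.16.

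In the ER lumen, Hspa5 and Hsp90b1 rose between 3 hr and 24 hr, by 0.32 and 0.72 (adjusted p = 0.0158 and 4.50e-06, limma), the former not called in 2 fits that left out 1 mouse each. Hspa5, the ER Hsp70 also called BiP, was 7.04, 7.34, 7.27, 7.37 and 7.08 in untreated mice, 7.77, 7.71, 7.53, 7.31 and 7.28 at 3 hr and 7.82, 7.70, 7.77, 7.86 and 8.05 at 24 hr. All 24 hr mice were above all untreated mice, and the 3 hr mice overlapped them. The changes were 0.30 ± 0.11 (adjusted p = 0.0236) and 0.62 ± 0.11 (adjusted p = 3.87e-05, limma). The 3 hr call was lost without untreated replicate 1 or 5, or vehicle replicate 1 or 2, and was 0.16 without both of these vehicle mice (adjusted p = 0.256). Hsp90b1, the ER Hsp90 called Grp94, was 6.88, 6.95, 6.84, 6.86 and 6.92 in untreated mice and 7.67, 7.56, 7.61, 7.82 and 7.90 at 24 hr. It was 7.06, 7.34, 6.92, 6.90 and 6.76 at 3 hr. It rose at 24 hr by 0.82 ± 0.11 (adjusted p = 7.11e-07), every mouse above every untreated one, and was 0.10 from untreated mice at 3 hr (adjusted p = 0.439).

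The ER J-domain proteins were mixed. Dnajc10, a disulfide reductase of ER-associated degradation, was 1.58, 1.67, 1.5, 1.62 and 1.65 in untreated mice and 2.51, 2.58, 2.54, 2.42 and 2.64 at 24 hr, a rise of 0.93 ± 0.13 without overlap (adjusted p = 6.34e-07, limma). Dnajb9, a BiP co-chaperone that restrains the sensor Ire1, was 2.89, 3.21, 3.1, 3.53 and 3.36 in untreated mice, 3.39, 3.86, 3.73, 3.80 and 3.61 at 3 hr and 3.69, 3.47, 3.62, 3.47 and 3.84 at 24 hr. Its groups overlapped, and the changes were 0.46 ± 0.15 (adjusted p = 0.0125) and 0.40 ± 0.15 (adjusted p = 0.0247), both lost with slide as a block (adjusted p = 0.0668 and 0.171). The 24 hr call was also lost without untreated replicate 1 or 3, or vehicle replicate 5. Dnajb11, which brings clients to BiP, rose by 0.55 ± 0.15 at 24 hr (adjusted p = 0.00244). Its change at 3 hr was -0.18 by the brighter probe (adjusted p = 0.298) and 2.26 by the dimmer one. Dnajc16, an ER membrane protein, was -0.67 ± 0.10 (adjusted p = 4.57e-06) at 3 hr. Dnajc3, which binds the kinases Perk and Pkr, was 0.15 and -0.19 (adjusted p = 0.260 and 0.154). The membrane proteins Dnajb12 and Dnajc25 fell at 24 hr by 0.53 and 0.62 (adjusted p = 3.14e-06 and 4.72e-05). The Dnajc25 call was lost with slide as a block (adjusted p = 0.230), and Dnajb12 was -0.19 on the deposited matrix values, where it was not called (adjusted p = 0.0602).

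Of the ER members 3 carry the ER stress element in their RefSeq promoter windows, and these are printed because 2 of the 3 rose at 24 hr. The letters searched were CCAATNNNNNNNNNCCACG on both strands, and 0.137% of the 27025 genes hold them, with Hspa5, Hsp90b1 and Dnajc3 among the 59 chaperones that have a window. Each stretch is in the gene's direction with matches in capitals. Hspa5 lies at chr2:34771985-34772083, plus strand, Hsp90b1 at chr10:86705493-86705694, minus strand, and Dnajc3 at chr14:118937787-118937885, plus strand (GRCm38.p6). Hsp90b1 has 2 matches, 1 per strand.
Hspa5: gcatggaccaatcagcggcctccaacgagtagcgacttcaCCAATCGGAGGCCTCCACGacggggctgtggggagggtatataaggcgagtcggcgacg
Hsp90b1: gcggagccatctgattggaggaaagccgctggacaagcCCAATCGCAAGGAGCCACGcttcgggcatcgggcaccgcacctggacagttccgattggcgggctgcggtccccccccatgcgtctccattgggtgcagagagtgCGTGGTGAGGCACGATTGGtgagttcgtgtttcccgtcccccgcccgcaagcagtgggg
Dnajc3: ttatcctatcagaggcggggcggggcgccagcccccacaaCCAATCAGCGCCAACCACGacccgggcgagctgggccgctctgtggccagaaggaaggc

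Of the 10 mitochondrial members 9 fell at 24 hr, against 39.1% of all genes. After quantile normalization, and again on the deposited matrix values, 6 were lower and 1 was higher. Hspd1, the chaperonin Hsp60, was 6.68, 6.88, 6.67, 6.69 and 6.78 in untreated mice and 5.98, 5.89, 6.15, 6.09 and 6.14 with vehicle at 24 hr. It was 6.85, 7.09, 6.76, 6.84 and 6.77 at 3 hr. The 24 hr mice lay below all untreated and all 3 hr mice, and the fall was 0.69 from untreated mice (SE 0.08, adjusted p = 6.07e-08, limma). Hspa9, the Hsp70 that drives import into the matrix, was 5.04, 5.45, 5.18, 5.23 and 5.20 in untreated mice and 4.53, 4.53, 4.66, 4.68 and 4.93 at 24 hr. It fell by 0.56 without overlap (adjusted p = 9.48e-05), and by 0.13 after quantile normalization, where it was not called (adjusted p = 0.11). Hspe1, the Hsp10 lid of the chaperonin, was -0.34 ± 0.13 (adjusted p = 0.0218), a call lost with slide as a block (-0.08, adjusted p = 0.677), without untreated replicate 2 and without vehicle replicate 2. At 3 hr Hspd1, Hspa9 and Hspe1 were 0.12, 0.14 and 0.0045 from untreated mice and were not called (adjusted p = 0.187, 0.277 and 0.977). The 24 hr change of Hspe1 was 0.17 after quantile normalization and 0.01 on the deposited matrix values.

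Hspd1 and Hspe1 are neighbours transcribed away from each other, and the stretch between them is printed because it holds a longer heat shock motif. The letters GAANNTTCNNGAA and TTCNNGAANNTTC, which are reverse complements of each other, occur in 0.662% of the 27025 genes with a window and in 4 of the 59 chaperones, namely Hspd1, Hspe1, Hsph1 and Dnajb6. Both motifs contain GAANNTTC. For Hspd1 and Hspe1 it is the same 98 bases read from opposite strands, with 2 overlapping matches, at chr1:55088019-55088116, plus strand for Hspe1 (GRCm38.p6). The Dnajb6 match lies before both of its listed starts, and the stretch printed, up to the first start, is at chr5:29735812-29735897, plus strand. That of Hsph1 lies after its start and is not printed. With the same letters in their windows, Hsph1 and, by its brightest probe, Dnajb6 rose at 24 hr, Hspd1 fell, and Hspe1 had the small change given above.
Hspe1: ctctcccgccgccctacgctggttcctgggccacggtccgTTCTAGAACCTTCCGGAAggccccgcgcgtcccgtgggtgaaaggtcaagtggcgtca
Hspd1: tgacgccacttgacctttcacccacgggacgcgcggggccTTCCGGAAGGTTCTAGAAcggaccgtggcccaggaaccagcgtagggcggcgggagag
Dnajb6: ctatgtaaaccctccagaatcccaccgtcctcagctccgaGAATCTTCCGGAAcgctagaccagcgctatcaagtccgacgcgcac

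Of the 7 mitochondrial J-domain proteins 1 rose and 3 fell at 3 hr, and 0 rose and 6 fell at 24 hr. Dnajc30, which stabilizes the ATP synthase, was 3.49, 3.63, 3.54, 3.63 and 3.51 in untreated mice, 2.85, 3.05, 3.02, 2.94 and 2.73 at 3 hr and 2.01, 2.06, 2.26, 2.20 and 2.40 at 24 hr. The 3 sets did not overlap, and the changes were -0.64 ± 0.11 (adjusted p = 1.39e-05) and -1.37 ± 0.11 (adjusted p = 7.84e-11, limma). Dnajc4 was 2.34, 2.64, 2.58, 2.49 and 2.57, 1.78, 1.85, 2.19, 1.59 and 1.88 and 1.19, 1.43, 1.54, 1.38 and 1.42 in the same order. It too stepped down without overlap, by 0.67 and then to -1.13 ± 0.10 (adjusted p = 6.33e-06 and 1.40e-09). Dnajc28 was -1.16, -1.28, -1.40, -1.57 and -1.47 in untreated mice, -3.94, -3.48, -3.84, -3.30 and -3.00 at 3 hr and -3.20, -2.76, -2.82, -2.77 and -2.57 at 24 hr. Both vehicle groups were below all untreated mice and overlapped each other, with changes of -2.13 ± 0.25 (adjusted p = 1.05e-07) and -1.45 ± 0.25 (adjusted p = 2.14e-05). Dnajc15, of the import motor, fell by 0.53 at 24 hr, Dnajc11 of the cristae-organizing complex by 0.31 and Dnaja3, the matrix partner of Hspa9, by 0.24. Of these 3, the Dnajc15 and Dnaja3 calls were lost with slide as a block (adjusted p = 0.0593 and 0.881). Changes as small as those of Dnajc11 and Dnaja3 also depend on the scaling. The median change over all genes at 24 hr was -0.08 as reported and 0.26 on the deposited matrix values. Dnajc19, also of the import motor, was 0.26 (adjusted p = 0.336) by its brighter probe at 24 hr and -1.05 by the other, which also gave -0.44 at 3 hr against 0.39, and its direction is uncertain. Dnajc22, which was not placed, was -0.52 ± 0.14 (adjusted p = 0.00278) at 3 hr and -1.44 ± 0.14 (adjusted p = 3.94e-09) at 24 hr. The hepatocyte markers given above also had a lower summed signal at 24 hr.

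Between 3 hr and 24 hr with vehicle the called members with the largest changes were partly those given above. Of the cytosolic ones Hspb2, dim at 3 hr, had 3.42 ± 0.23, Hspa12b, likewise dim, 2.05 ± 0.21, Dnajc9 1.82 ± 0.09 and Hspb1 1.76 ± 0.26 (adjusted p = 1.02e-11, 8.77e-09, 9.08e-14 and 2.94e-06, limma). Dnajc12 had 1.63 ± 0.16, Dnajb1 1.38 ± 0.15, Hspa1a 1.29 ± 0.33 and Dnaja4 1.03 ± 0.12 (adjusted p = 3.36e-09, 3.51e-08, 0.00141 and 7.08e-08). Hsph1 and Hsp90aa1 rose too, by 1.00 ± 0.24 and 0.63 ± 0.17 (adjusted p = 0.000697 and 0.00220). Besides Hspa14 (-1.26 ± 0.12, adjusted p = 4.45e-09), the cytosolic members that fell most were Hspb6 at -1.27 ± 0.15, Hspb8 at -1.13 ± 0.14, Dnajb4 at -0.92 ± 0.15 and Dnaja2 at -0.72 ± 0.07 (adjusted p = 1.16e-07, 1.64e-07, 8.84e-06 and 4.77e-09). In the ER Dnajc10 rose by 1.15 ± 0.13 and Dnajb11 by 0.74 ± 0.15 (adjusted p = 2.46e-08 and 0.000152), though the dimmer Dnajb11 probe gave -0.43. In mitochondria Hspd1, Hspa9, Dnajc30 and Dnaja3 fell, at -0.81 ± 0.08, -0.70 ± 0.11, -0.73 ± 0.11 and -0.60 ± 0.11 (adjusted p = 4.23e-09, 5.63e-06, 1.83e-06 and 2.40e-05), and so did the unplaced Dnajc22, at -0.92 ± 0.14 (adjusted p = 3.58e-06). Dnajc3 and Hspe1 had -0.34 and -0.34, both called, but slide as a block ended the calls (adjusted p = 0.0125 and 0.0203, then 0.258 and 0.557) and their sign turned after quantile normalization and on the matrix values. Hsp90ab1, the constitutive cytosolic Hsp90, had 0.28 (adjusted p = 0.0435), a call lost in 6 fits that left out 1 mouse each. Dnaja1 and Dnajb9 were not called, at -0.18 and -0.06 (adjusted p = 0.264 and 0.746), and both were positive after quantile normalization and on the matrix values.

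**Figure D3:**
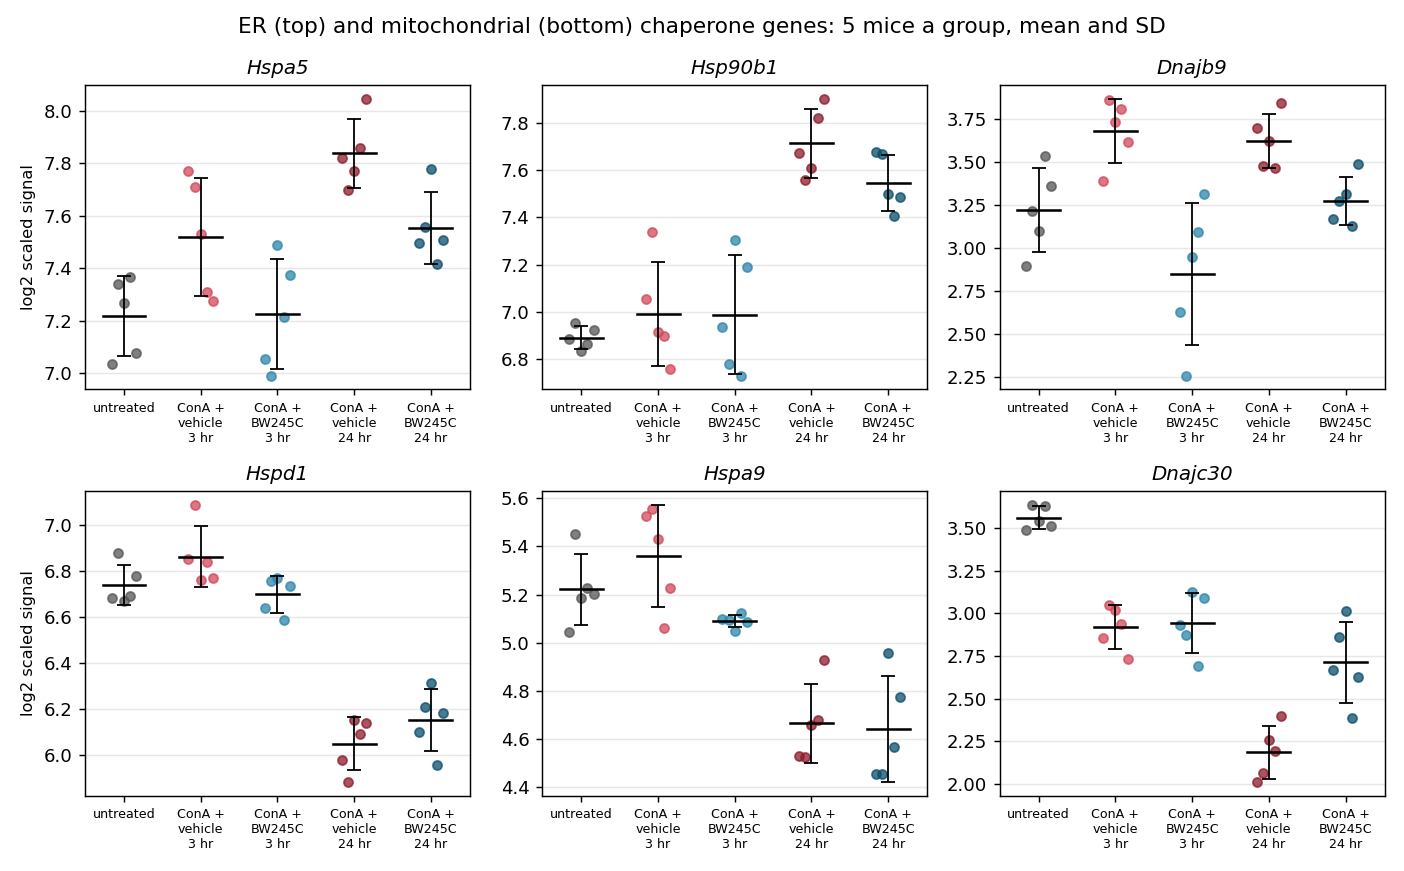
Log2 scaled signal (y axis) of 3 ER genes (top) and 3 mitochondrial genes (bottom) in the 5 groups (x axis); points are mice, the long bar is the mean and the whiskers the SD (n = 5). Hsp90b1 is 7.71 ± 0.14 with vehicle at 24 hr against 6.89 ± 0.05 in untreated mice, while Hspd1 is 6.05 ± 0.12 against 6.74 ± 0.09.

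The first question of the treatment comparison is how chaperones differed between BW245C and vehicle mice 3 hr after ConA. Hspa1a was -3.17, -2.97, -3.15, -2.45 and -2.82 with BW245C, where vehicle mice had 0.13, -1.17, -1.01, -0.07 and 1.16. All BW245C mice were below all vehicle mice and overlapped the untreated ones. Hspa1a was lower by 6.60-fold (log2 change -2.72 ± 0.33, adjusted p = 5.75e-06, limma), -3.18 with slide as a block (adjusted p = 7.13e-05), and -3.46 within slide 3 (5 against 2 mice). Against untreated mice its change with BW245C was 0.21 (95% interval -0.48 to 0.89, adjusted p = 0.579), in a contrast added after the data were seen. No slide held both untreated mice and BW245C mice of 3 hr. The summed erythroid signal was lower with BW245C too, 42.0 to 244 against 337 to 533, and its part in these changes was not tested. Hspa2, in contrast, was 0.33, 0.60, 0.36, 0.57 and 0.61 with BW245C at 3 hr, overlapping vehicle mice (-0.27 ± 0.16, adjusted p = 0.203), and was 1.94 above untreated mice (adjusted p = 4.86e-10).

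Of the 61 members 6 were higher and 18 lower with BW245C at 3 hr, against 11.8% and 16.9% of all genes, together 28.6%. The median was -0.16 for the members and -0.04 over all genes. Of the 34 cytosolic members 5 were higher and 14 lower, of the 14 in the ER 1 and 2, and of the 10 in mitochondria 0 and 1. With slide as a block 7 of the 24 calls remained, 2 higher and 5 lower. These were Hspa1a, Hspa8, Dnaja2, Dnajc24 and Dnajb9 below vehicle, and Hspa4l and Dnaja4 above it. Calls were lost over all genes too, with 854 higher and 916 lower under the block, against 1776 and 2547 without it. Without the vehicle mice of slide 2, 10 members were called, 9 of them among the 24, and without those of slide 3, 35 were called. Without vehicle replicate 2 alone, 14 were called. Slide 3 was the only slide that held both groups at 3 hr.

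The other 4 lower members that held under the block follow. Hspa8 was 7.89, 8.09, 8.05, 8.27 and 8.41 with BW245C, below all vehicle mice and overlapping untreated ones, a change of -0.58 ± 0.11 (adjusted p = 0.000662, limma) and -0.48 with the block (adjusted p = 0.0251). Dnajb9 was 2.63, 2.26, 2.95, 3.09 and 3.31, also below all vehicle mice, a change of -0.83 ± 0.15 (adjusted p = 0.000442) and -0.85 with the block (adjusted p = 0.0113). Dnaja2 was 3.53 ± 0.09 (SD), between untreated and vehicle mice, a change of -0.40 ± 0.07 (adjusted p = 0.000327) and -0.40 with the block. Dnajc24, which acts in making diphthamide on elongation factor 2, was lower by 1.48-fold (-0.57 ± 0.10, adjusted p = 0.000265; -0.34 with the block).

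Hspa4l was higher than with vehicle. It was 1.78, 1.92, 1.82, 1.93 and 1.80 with BW245C and 1.41, 1.63, 1.16, 0.74 and 0.98 with vehicle, where untreated mice had 1.75, 1.91, 1.80, 1.77 and 1.71. The BW245C mice lay above all vehicle mice and near the untreated mice, which were on other slides. The change from vehicle was 0.66 ± 0.16 (adjusted p = 0.00439, limma) and 0.99 with the block. Dnaja4 was 0.42 above vehicle (adjusted p = 0.0116, 0.59 with the block), though the mean of its probes was not called (adjusted p = 0.163).

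The other calls at 3 hr were lost under the block. Hsph1 was 2.02, 1.93, 2.63, 2.06 and 2.63 with BW245C, overlapping the split vehicle group, a change of -0.73 ± 0.24 (adjusted p = 0.0239) that became -0.41 with the block (adjusted p = 0.344). Without the 2 vehicle mice of slide 2 it was -0.32, and the call was also lost without vehicle replicate 1 or 2 or BW245C replicate 1 or 2. Dnajb1 was 2.38, 2.49, 2.58, 2.76 and 2.84, below all vehicle mice (-0.56 ± 0.15, adjusted p = 0.010; -0.44 with the block, adjusted p = 0.140). It was lower in BW245C mice than in vehicle mice, which were themselves below untreated mice. Hspb8 was 4.76 ± 0.19 (SD) against 5.26 ± 0.30 (-0.50 ± 0.14, adjusted p = 0.0103; -0.22 with the block). Dnaja1, a general Hsp70 partner, was -0.45 ± 0.14 (adjusted p = 0.0180), not called without vehicle replicate 2 (adjusted p = 0.0661). Hspa12b and Hspb2, both dim at 3 hr, were 0.66 and 0.68 above vehicle, with 5 and 3 of 5 BW245C arrays well above background. Each overlapped vehicle mice and was not called under the block (adjusted p = 0.437 and 0.194), nor without vehicle replicate 1 or 2 or BW245C replicate 5, and Hspb2 also not without vehicle replicate 5 or BW245C replicate 1 or 3. Dnajb4, Dnajc17, Hspb9 and Dnajc14 were -0.46, -0.50, 0.49 and 0.40 (adjusted p = 0.0248, 0.00728, 0.00900 and 0.0296), and the other Dnajc14 probe gave -0.09. Hsp90aa1 (-0.33, 95% interval -0.68 to 0.02) and Hspd1 (-0.16, -0.33 to 0.0026) were not called.

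At 24 hr Hspa1a was again lower with BW245C. It was -0.65, -0.78, -0.35, -1.22 and 0.16 with BW245C, below every vehicle mouse and above every untreated mouse. The change from vehicle was -1.66 ± 0.33, 3.17-fold lower (adjusted p = 0.000748, limma), -1.69 with slide as a block (adjusted p = 0.00173) and -2.01 within slide 4 (3 against 4 mice). Hspa1a remained 2.56 ± 0.33 above untreated mice (adjusted p = 6.26e-07). Hspa2 was -0.66, -0.91, -0.73, -0.67 and -0.10, below all vehicle mice at 24 hr, a change of -0.85 ± 0.16 (adjusted p = 0.000542; -1.08 with the block). The neutrophil markers, given above, were also lower with BW245C than with vehicle at this time, and their part in these changes was not tested.

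Of the 61 members 7 were higher and 5 lower with BW245C at 24 hr, against 17.6% and 8.95% of all genes, together 26.6%. The median was -0.04 for the members and 0.01 over all genes. The lower ones were all cytosolic: Hspa1a, Hspa2, Dnajb6 (-0.44 ± 0.10), Dnajc21 (-0.38 ± 0.09) and Dnajc2 (-0.32 ± 0.09), the last being ribosome-associated (adjusted p = 0.00294, 0.00401 and 0.00977, limma). The value for Dnajb6 is from its brightest probe, and its other probes gave -0.45, -0.11 and -0.02. The higher ones included 3 of the 10 mitochondrial members and 1 of 34 cytosolic ones. With slide as a block 18 were called, 5 higher and 13 lower, and 10 of the 12 were among them. Of all genes 2302 were higher and 2026 lower with the block, against 2661 and 1352 without it. Hsph1, Hsp90aa1, Hspb1 and Hspa5 were lower under the block (-0.78, -0.56, -0.83 and -0.37, adjusted p = 0.0184, 0.00533, 0.0297 and 0.0116) and not called without it (-0.54, -0.35, -0.55 and -0.29). The split turned with the scaling too, to 6 higher and 17 lower after quantile normalization and 4 higher and 16 lower on the deposited matrix values. The higher share of called members was 58.3% as reported, 26.1% after quantile normalization and 20% on the matrix values. Over all called genes it was 66.3%, 60.2% and 42.8% in the same order.

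The members that were higher with BW245C at 24 hr are set beside untreated mice too, a comparison that shares the BW245C mice. Hspb6 was 0.45, 1.03, 0.59, 0.41 and 0.47 with BW245C, above all vehicle mice and below all untreated mice, a change of 0.75 ± 0.15 (adjusted p = 0.000957, limma). Dnajc30 was 2.67, 2.86, 3.01, 2.39 and 2.63 and Dnajc4 1.72, 1.96, 2.06, 1.53 and 1.89. Both lay mostly above the vehicle mice and below the untreated mice, with changes of 0.53 ± 0.11 (adjusted p = 0.000891) and 0.44 ± 0.10 (adjusted p = 0.00312), 0.48 and 0.36 with the block. Dnajc15 was 0.27 above vehicle (adjusted p = 0.0375), a call lost with the block and without any 1 of vehicle replicates 1 to 4 or BW245C replicates 2 and 3. The unplaced Dnajc22 was 0.38 (adjusted p = 0.0472), a call lost with the block and in 16 fits that left out 1 mouse each. Dnajb12 was 0.27 above vehicle (adjusted p = 0.0159). Hspg2, also unplaced, was 0.35 above vehicle (adjusted p = 0.00819), while its dimmer probe gave -0.05. Hspd1 was 6.10, 6.21, 6.31, 5.96 and 6.18 with BW245C and Hspa9 4.45, 4.45, 4.96, 4.57 and 4.77. Both overlapped vehicle mice, with changes of 0.10 (95% interval -0.06 to 0.27) and -0.02 (-0.25 to 0.21), and of -0.59 and -0.58 from untreated mice, without overlap (adjusted p = 1.37e-06 and 9.28e-05).

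**Figure D4:**
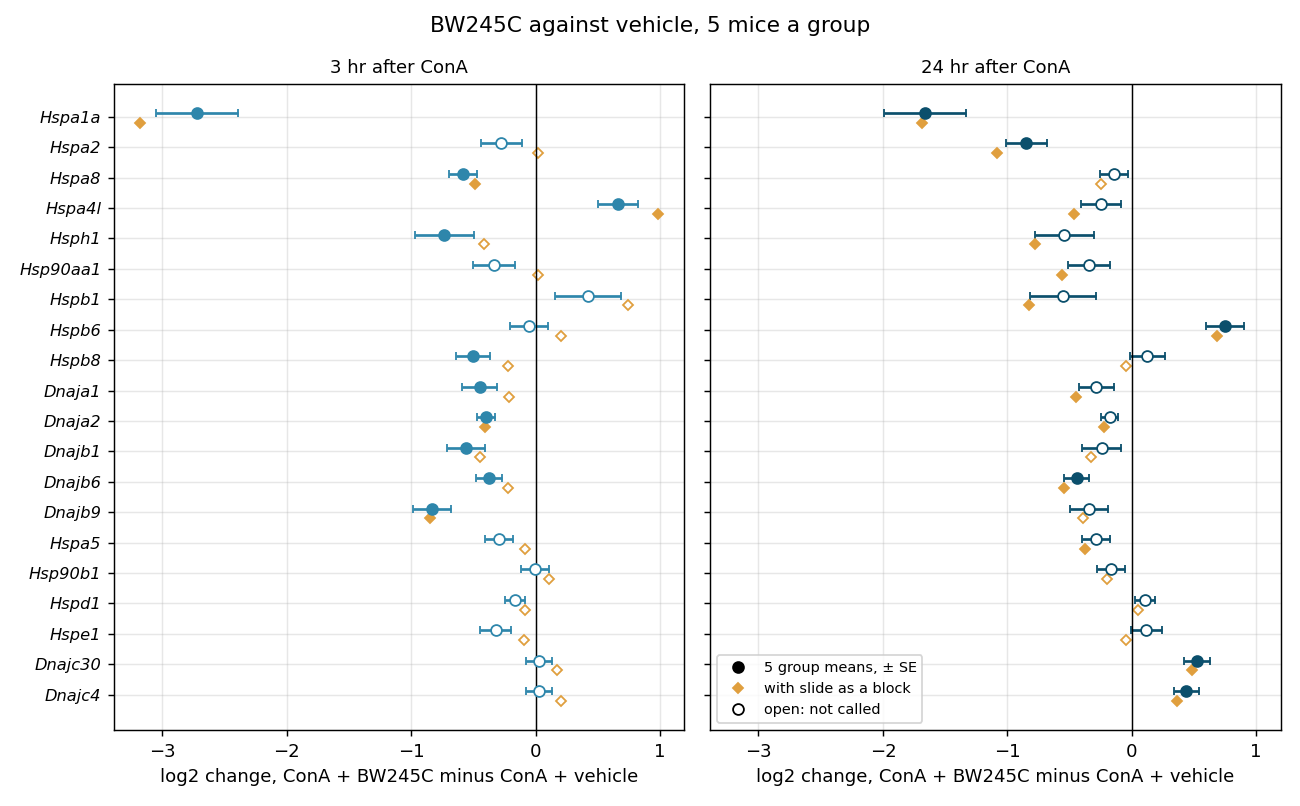
Log2 change of BW245C minus vehicle (x axis) for 20 chaperone genes (y axis) at 3 hr (left) and 24 hr (right). Circles with SE are from the fit on 5 group means and diamonds from the fit with slide as a block, filled where called. Hspa1a lies farthest left in both panels, at -2.72 and -1.66, and 5 of the 9 other filled circles at 3 hr have an open diamond.

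The test of whether the agonist difference changed between 3 hr and 24 hr called 12 members higher and 3 lower, against 19.3% and 10.8% of all genes, together 30%. The split was 9 and 6 after quantile normalization and turned to 4 and 13 on the deposited matrix values, where 32% of all called genes were higher, against 64.1% as reported. The members included Hspb6 (0.81, adjusted p = 0.00924, limma), Hspb8 (0.63, adjusted p = 0.0217), Dnajc30 (0.50, adjusted p = 0.0169) and Hspa8 (0.44, adjusted p = 0.0401), the last not called in 10 fits that left out 1 mouse each. The difference from vehicle was more positive at 24 hr also for Dnajc17, Dnajc22, Dnajc24 and Dnajc1, by 0.83 ± 0.18, 0.71 ± 0.20, 0.57 ± 0.14 and 0.45 ± 0.12 (adjusted p = 0.00275, 0.0116, 0.00537 and 0.0117), and for the mitochondrial Dnajc15 and Dnajc4, by 0.43 ± 0.13 and 0.41 ± 0.15 (adjusted p = 0.0188 and 0.0377). Dnajc14 and Hspb9 had -0.58 ± 0.19 and -0.54 ± 0.19 (adjusted p = 0.0275 and 0.0348), and the other Dnajc14 probe gave 0.24. The calls of Dnajc4, Hspb9 and Dnajc14 were lost in 10, 9 and 4 fits that left out 1 mouse each. With slide as a block 5 were called, all lower, and Hspa4l was the 1 member shared (-0.91 ± 0.23, adjusted p = 0.00609; -1.45 with the block, adjusted p = 0.00160). Hspa1a was not called in this test (1.06 ± 0.46, adjusted p = 0.0854), though 3 fits that left out 1 mouse each called it. Over all genes this test called 505 higher and 423 lower with slide as a block, against 2908 and 1630 without it.

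Compared with untreated mice, BW245C mice at 3 hr had 9 members higher and 27 lower, against 27% and 42.3% of all genes, together 69.3%. At 24 hr 17 were higher and 16 lower, against 22.7% and 33.8%, together 56.6%. In mitochondria 7 of 10 were lower and 0 higher at 24 hr, with a median of -0.42. These contrasts share the untreated mice with those of the vehicle groups and were fitted without a slide block. No slide held both untreated mice and BW245C mice of 3 hr, so slide and treatment cannot be told apart in the 3 hr counts.

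The partners of the chaperones were read from lists of other genes in the same pathways. Their counts are to be set against all genes, of which 25% rose and 37% fell with vehicle at 3 hr and 29.8% and 39.1% at 24 hr, and 11.8% were higher and 16.9% lower with BW245C at 3 hr and 17.6% and 8.95% at 24 hr. Under the slide block 3383 of all genes rose and 4750 fell with vehicle at 3 hr, and 3454 and 4246 at 24 hr. With BW245C the block gave 854 higher and 916 lower at 3 hr, and 2302 and 2026 at 24 hr. Of 27 heat shock factors and cytosolic co-chaperones 4 rose and 11 fell with vehicle at 3 hr, and 6 rose and 12 fell at 24 hr. With slide as a block 6 rose and 9 fell at 3 hr, and 5 rose and 8 fell at 24 hr. Bag3, a stress-induced nucleotide exchange factor, and Fkbp5, an Hsp90 co-chaperone induced by glucocorticoids, rose most at 3 hr (1.64 ± 0.13 and 1.09 ± 0.19, adjusted p = 2.00e-10 and 3.45e-05, limma), and Hsf2 (-1.48) and Bag4 (-1.05) fell most. With BW245C at 3 hr 1 was higher and 8 lower than with vehicle, which became 2 and 1 with slide as a block. Bag3 was -0.85 and Chordc1, an Hsp90 co-chaperone, -0.63, and Fkbp5 was 0.85 (adjusted p = 8.27e-05, 0.00208 and 0.00269). At 24 hr 4 were higher and 2 lower, or 3 and 6 with the block, with Hsf2 at 0.65 and Bag3 at -0.38. Of the 14 genes of the CCT chaperonin and prefoldin, which fold actin and tubulin, 3 rose and 0 fell at 3 hr, 1 rose and 3 fell at 24 hr, and 5 were lower with BW245C at 3 hr, led by Cct4 at -0.41. With slide as a block 4 rose and 0 fell with vehicle at 3 hr, and the 24 hr counts turned to 5 higher and 0 lower. The block left 2 lower with BW245C at 3 hr. With BW245C at 24 hr 1 was higher and 1 lower, or 0 and 6 with the block.

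Of 24 ER folding and unfolded protein response genes 3 rose and 7 fell with vehicle at 3 hr, and 10 rose and 6 fell at 24 hr. With slide as a block 3 rose and 2 fell at 3 hr, and 11 rose and 3 fell at 24 hr. The transcription factor Xbp1 rose most at 3 hr (1.73 ± 0.11, adjusted p = 6.80e-12, limma). At 24 hr Derl3, of ER-associated degradation, and Ddit3, a stress transcription factor also called Chop, rose most (4.06 ± 0.57 and 2.30 ± 0.16, adjusted p = 1.06e-06 and 1.97e-11), and Edem1 (-1.15) and Sil1 (-1.04) fell most. With BW245C 0 were higher and 5 lower at 3 hr, or 1 and 1 with slide as a block, with Ddit3 at -0.82, and 1 higher and 3 lower at 24 hr, or 2 and 5 with the block, with Creld2 at -0.79 and Ddit3 at -0.49. Of 10 mitochondrial partners and proteases 2 rose and 2 fell at 3 hr, or 3 and 1 with the block. At 24 hr 1 rose and 8 fell, or 1 and 7 with the block. Clpx, which unfolds substrates for the Clpp protease, and Trap1, the mitochondrial Hsp90, fell most (-1.16 ± 0.08 and -1.04 ± 0.08, adjusted p = 2.32e-11 and 4.36e-11). With BW245C at 24 hr 3 were higher and 0 lower than with vehicle, led by Clpx (0.40) and Hscb (0.39). The counts were 3 and 1 with the block.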

How the data were processed

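Liver RNA of 25 mice was measured on 25 one-colour Agilent arrays, and the groups were taken from the sample titles. Per the file headers, the deposited intensity values were background-subtracted and processed by Agilent Feature Extraction 10.7.3.1, while the submitters' processing notes name version 9.1. They were not scaled between arrays. The authors' deposited value matrix, an unlogged intensity, equals the processed signal times 1 factor per array (2.42 to 3.29, deviations under 0.72%), and served as an alternative. The number of arrays limits the precision.

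Each processed signal was put on the log2 scale after dropping outlier-flagged and control spots, and the 75th percentile of the array was subtracted. Spots of a probe were averaged, and a gene was represented by its brightest probe among those well above background on 5 or more arrays. Of 55681 probes 26582 had 1 RefSeq symbol and 29099 had none. Group means were fitted over 25 arrays with limma 3.58.1 in R 4.3.3, and p-values were adjusted by Benjamini-Hochberg over 15104 genes. Tested on simulated data (vehicle 3 hr against untreated, 15104 genes), the fit recovered 26, 42, 49 and 50 of 50 genes changed 1.5-, 2-, 4- and 8-fold, and called 8 of 14904 unchanged genes. The simulated noise was normal and independent between genes and arrays, with no slide effect, whereas the measured arrays had a correlation within slide of 0.28. These counts therefore do not give the error rate in the measured data. Slide numbers came from the array barcodes. Alternatives were normexp background correction, quantile normalization, the matrix values, the filter, the mean of probes, slide as a fixed or random block, the replicate number as a block, fewer groups in the fit, and each mouse left out. Those leaving out the vehicle mice of slide 2 or 3, and the contrasts of BW245C with untreated mice, were added after seeing the data.

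The rule for full statistics took the 10 most raised and 10 most lowered of the called members per comparison and a fixed set of well-known members; for members of that set not called in the BW245C comparisons some values are not printed. For other lists it took the counts and the 2 most raised and lowered genes. The members and lists were chosen with earlier results of these data known. The p-values measure the spread between these mice. Same-numbered mice did not deviate together: 4 of 25 arrays had their closest match in an array of the same number, with a median correlation of -0.01. Promoter sequences are from RefSeq (GRCm38.p6), with 59 of 73 members matched; the arrays' headers name mm9, so no gene coordinates were joined to them.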

Additional observations from a re-analysis of the deposited data

Results flagged for a closer look

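Among 125 sets of 5 mice whose values are given for 25 genes, 2 held a mouse far from the others, where chance gives about 1 in 20. Hspb6 was 1.03 in BW245C replicate 2 at 24 hr, against 0.41 to 0.59 in the other mice. Hspd1 was 7.09 in vehicle replicate 2 at 3 hr, against 6.76 to 6.85 in the others.

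The difference between BW245C and vehicle changed from 3 hr to 24 hr for 15 members by limma's test of that change. It was more positive at 24 hr than at 3 hr for Dnajc17 (0.83), Hspb6 (0.81), Dnajc22 (0.71), Hspb8 (0.63), Dnajc24 (0.57), Dnajc30 (0.50), Dnajc1 (0.45), Hspa8 (0.44), Dnajc15 (0.43), Dnajc4 (0.41), Hspg2 (0.41) and Dnajc11 (0.37). This need not be a larger difference at 24 hr. Hspa8, Dnajc24 and Hspb8 were -0.58, -0.57 and -0.50 from vehicle at 3 hr and -0.14, 0.0075 and 0.12 at 24 hr, while Hspb6 was -0.06 and then 0.75. The difference was more negative at 24 hr for Hspa4l (-0.91), Dnajc14 (-0.58, with 0.24 by its other probe) and Hspb9 (-0.54). On the deposited matrix values 4 members were called higher and 13 lower. With slide as a block, Hspa4l alone among these 15 was called.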

How the results depend on the processing

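The counts of calls varied least in the comparisons of vehicle with untreated mice and between the times: across all alternatives 28 to 41 members were called at 3 hr, 31 to 45 at 24 hr and 37 to 49 between the times (32, 39 and 47 as reported). The agonist comparisons depended more on the setting. At 3 hr the 24 members called became 7 with slide as a fixed block, 9 with slide as a random block, 11 with only the compared groups in the fit, 10 without the vehicle mice of slide 2 and 9 at a threshold of 0.01. At 24 hr the 12 became 23 after quantile normalization and 20 on the matrix values. For the change between the times the 15 became 5 with slide as a fixed or as a random block, 7 and 27 without the vehicle mice of slide 2 or 3, and 4 at a threshold of 0.01. With each mouse left out in turn the counts ran from 30 to 37, 35 to 40, 42 to 47, 14 to 30, 10 to 14 and 10 to 19 in the order of the comparisons; the lowest count at 3 hr with the agonist, 14, came without vehicle replicate 2.

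With the replicate number as a block, 32, 38, 44, 23, 12 and 16 members were called, and since same-numbered mice did not deviate together the numbers were not read as pairing.

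Named values called in neither the reported nor the alternative fit could change sign, also in the agonist comparisons. Hsp90b1 with BW245C against vehicle at 3 hr, for instance, ran from -0.08 to 0.08 with each mouse left out. Of the named values called in the reported or the alternative fit, 14 changed sign, all in comparisons among vehicle and untreated mice. Dnajb11 at 3 hr with vehicle was 1.04 as the mean of its probes. Against untreated mice at 24 hr, Dnaja1 was 0.34 after quantile normalization, and Hspe1 0.17 there and 0.01 on the matrix values. Between 3 hr and 24 hr, quantile normalization and matrix values gave 0.28 and 0.04 for Hspa8, 0.39 and 0.27 for Dnaja1, 0.34 and 0.39 for Dnajb9, 0.18 and 0.11 for Dnajc3, and 0.27 and 0.11 for Hspe1. The cause was not tested. Dim probes limit Hspb2, Hspa12b and Dnajc28, which were near background at 3 hr.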
